A study of Mus musculus with 8 samples.

Results

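The hard palate of the mouse was profiled by tomo-seq, which slices a frozen block from end to end and marks the RNA of every slice with its own barcode. The profile rests on the 2 hard palate samples among the 8 of the series. Each sample was cut into 20 sections of 14 µm, so 40 of the 160 sections of the series are described and 280 µm of tissue are covered per sample. All 40 sections held at least 10000 UMIs (unique molecular identifiers, which mark single captured transcripts) and were kept. The tissue came from wild-type C57BL/6J mice without a stated treatment, and the other 6 samples are pairs from buccal mucosa, dorsal tongue and ventral tongue of the same strain and genotype. The labels give no age. They also leave unsaid whether the numbered replicates are separate animals, so a p-value here covers only sample-to-sample spread, part of which may be technical.

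The hard palate is lined by a masticatory mucosa, a thick epithelium that cornifies at its surface and is bound through a dense lamina propria to the bone below. Its keratinocytes divide in the basal layer, change their keratins as they move up through the spinous and granular layers, and end as flattened cells inside a cross-linked protein envelope that is later shed by proteases. Many proteins of that envelope are encoded side by side in the epidermal differentiation complex on mouse chromosome 3. The lamina propria holds fibroblasts, blood and lymph vessels, nerves and immune cells, and farther back the palate also carries mucous glands.

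The labels do not say at which end the cutting began. Section 1 was taken as the surface end because the genes of the cornified envelope were highest near it in both replicates. The summed level of the cornified envelope list, in counts-per-million of a section's UMIs (CPM), went from 48513 in section 2 to 11705 in section 17 of replicate 1, and from 50074 in section 1 to 20640 in section 20 of replicate 2. The direction of that list was fixed by this choice and is no finding. Sections 1 to 5 are called superficial, 8 to 13 middle and 16 to 20 deep. The names give positions in the block and not tissue layers, since epithelial keratins stayed abundant in every section.

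Replicate 1 held 17743983 UMIs and replicate 2 held 26376536. Single sections ranged from 52783 to 2850676 UMIs in replicate 1 and from 554582 to 2356992 in replicate 2. In replicate 1 section 18 gave 72.0% of the UMIs of the deep sections, so a fold change from summed UMIs leans on that section there. Sections 1, 4 and 19 of replicate 1 stood apart. Their summed CPM of 28 skeletal muscle genes was 3286, 7224 and 12731, with 1096 in section 16 and 116 to 474 in the other sections of that replicate, against 134 to 431 in replicate 2. Sections 1 and 4 also had a summed CPM of salivary and mucous gland genes of 604 and 1281. Leaving out sections 1, 4 and 19 of replicate 1 gave 1803 genes in place of the 1873 reported next, with 1707 in common.

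The question was which genes change from the superficial to the deep end. UMIs were summed over each window of each sample and tested with edgeR's quasi-likelihood test with Benjamini-Hochberg adjustment, with the sample as a block. Of 16590 genes tested, 1873 (11.3%) differed at an adjusted p under 0.05, of which 1038 (6.26%) were higher deep and 835 (5.03%) were higher superficially. The median log2 change of all genes tested was 0.02. Among the 3932 genes with a mean of at least 50 CPM, the log2 change of the 2 replicates had the same sign in 2695 (68.5%). The 5 superficial and 5 deep sections did not overlap in either replicate for 195 genes (1.18%) that were higher deep and 181 (1.09%) that were higher superficially. The replicates differed in how sharply they separated. In replicate 1 the windows did not overlap for 281 genes (1.69%) higher deep and 273 (1.65%) higher superficially, against 2696 (16.3%) and 595 (3.59%) in replicate 2.

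Genes of the cornified envelope, which had fixed the direction, were followed first. Of 43 tested members 28 were higher superficially and none was higher deep, and the median log2 change was -1.04. For 18 members the superficial and deep sections did not overlap in either replicate. Flg encodes filaggrin, which bundles keratin filaments in cornifying cells. It was at 558 ± 143 CPM (mean ± SD over 5 sections) superficially and 121 ± 79.2 CPM deep in replicate 1, and at 1219 ± 33.3 and 452 ± 139 CPM in replicate 2. The superficial sections held 413 to 744 CPM and the deep ones 55.5 to 256 CPM in replicate 1, and 1169.6 to 1256 and 312 to 608 CPM in replicate 2, so the windows did not overlap. The log2 change was -2.11 ± 0.25 (± SE, as for all log2 changes; edgeR adjusted p = 0.000218).

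The Lce1 genes encode late cornified envelope proteins that are added to the inner face of the envelope. Of 14 Lce1 genes tested 13 were higher superficially, with log2 changes of all 14 between -2.00 and -1.58 and a median of -1.75. The exception, Lce1m, was near the limit of detection, at 2.51 and 1.69 CPM superficially and 0.0702 and 0.691 CPM deep in replicates 1 and 2 (adjusted p = 0.0592). Lce1l had the strongest change, from 656 ± 209 to 196 ± 87.2 CPM in replicate 1 and from 893 ± 72.7 to 284 ± 119 CPM in replicate 2. Its log2 change was -2.00 ± 0.19 (adjusted p = 4.37e-05). Lce1i, an abundant member, went from 1422 to 443 CPM in replicate 1 and from 2064 to 788 CPM in replicate 2. In all 13 Lce1 genes that passed, every superficial section lay above every deep section in both replicates. The genes resemble each other closely and no label states how shared reads were counted, so the split among members is uncertain.

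The 14 Lce1 genes tested lie between positions 92646535 and 93019060 of chromosome 3 (GRCm38), and their promoters can be read side by side. The bases just upstream of the start are shown for 5 of them and for Lor, the gene of the envelope protein loricrin, from RefSeq on GRCm38.p6. Of the 14 Lce1 genes 13 had a promoter entry. Each line is the strand of the gene, 5′ to 3′, and ends at the base before the RefSeq start. Capitals mark the run ATAAAA, with a preceding T where present, and the run CTGTCTCAC.
Lce1d (chr3:92687211-92687310, minus strand): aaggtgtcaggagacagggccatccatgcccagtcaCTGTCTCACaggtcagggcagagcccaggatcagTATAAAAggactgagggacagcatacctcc
Lce1h (chr3:92765066-92765165, minus strand): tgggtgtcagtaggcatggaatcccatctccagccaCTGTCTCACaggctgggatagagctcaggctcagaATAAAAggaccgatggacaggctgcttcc
Lce1i (chr3:92778900-92778999, minus strand): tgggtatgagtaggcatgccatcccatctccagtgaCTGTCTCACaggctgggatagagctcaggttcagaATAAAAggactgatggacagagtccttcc
Lce1j (chr3:92790515-92790614, minus strand): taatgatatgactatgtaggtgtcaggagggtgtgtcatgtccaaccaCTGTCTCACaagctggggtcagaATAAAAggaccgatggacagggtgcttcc
Lce1l (chr3:92851287-92851386, minus strand): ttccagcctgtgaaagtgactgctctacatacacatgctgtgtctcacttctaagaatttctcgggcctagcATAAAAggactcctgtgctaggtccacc
Lor (chr3:92083143-92083242, minus strand): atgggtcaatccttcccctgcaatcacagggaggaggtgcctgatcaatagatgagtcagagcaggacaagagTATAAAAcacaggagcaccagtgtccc

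The runs were chosen after looking at these sequences, so their counts are a description. ATAAAA began 29 bases upstream of the start in Lce1d, Lce1h, Lce1i and Lce1j, 28 in Lce1l and 26 in Lor. In promoters read but not shown it began 52 bases upstream in Flg and 28 in Lce1m, the Lce1 gene that did not pass. Within the 100 bases upstream, on either strand, 12 of 13 Lce1 promoters (92.3%) and 27 of 45 promoters of cornified envelope genes (60%) held ATAAAA, against 2321 of 32851 promoters in the RefSeq table (7.07%) and 2 of 28 promoters of fibroblast genes (7.14%). CTGTCTCAC was in 9 of 13 Lce1 promoters (69.2%) and in 45 of all 32851 (0.137%). It began 64 bases upstream in Lce1d, Lce1h and Lce1i and 52 in Lce1j.

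Families of the same complex did not all follow the Lce1 genes. Between S100a10 and S100a1 (chromosome 3, 90511034 to 93564643, GRCm38) 67 genes were tested, 35 were higher superficially and 1 was higher deep, with a median log2 change of -1.01. Of 6 Lce3 genes 4 were higher superficially, and of 7 genes of the filaggrin family 4 were. Among them Crnn, which encodes cornulin, went from 1738 to 820.1 CPM in replicate 1 and from 2149 to 1154 CPM in replicate 2, a log2 change of -1.37 ± 0.27 (adjusted p = 0.00514). Hrnr, the hornerin gene, passed with a log2 change of -1.96 (adjusted p = 0.0202), but at very unequal levels, from 204 to 74 CPM in replicate 1 and from 7.23 to 2.83 CPM in replicate 2. Its windows overlapped in both replicates and it did not pass with either replicate left out, with log2 changes of -1.90 without replicate 1 and -1.97 without replicate 2.

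The Sprr genes encode small proline-rich envelope proteins. Of 13 tested, 2 were higher superficially (Sprr1b and Sprr2b), 1 was higher deep (the pseudogene Sprr2j-ps), and the median log2 change was 0.07. Sprr1b went from 826 to 450.4 CPM in replicate 1 and from 687 to 321 CPM in replicate 2, a log2 change of -1.18 ± 0.21 (adjusted p = 0.00299). Sprr2d did not pass (adjusted p = 0.237) and showed the replicates at odds. It lay between 90.9 and 646 CPM in replicate 1 with no order by depth, while in replicate 2 it went from 13.5 CPM in section 2 to 566 CPM in section 20. The Sprr2 genes are near-identical copies and their split is uncertain.

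**Figure D1:**
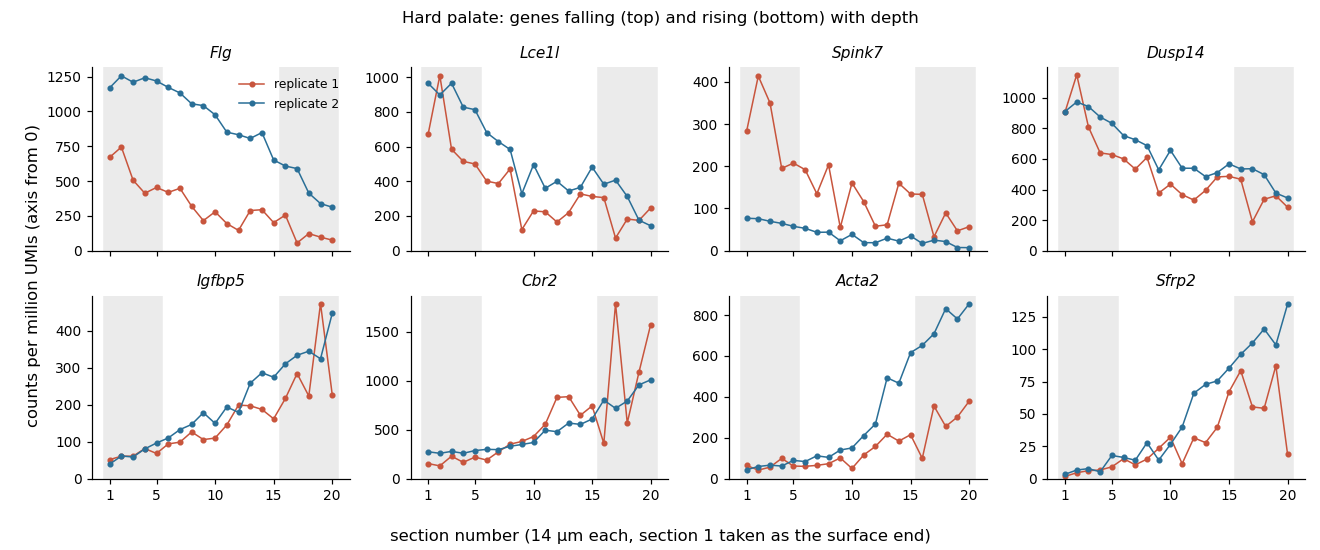
CPM (counts-per-million of a section's UMIs) of 8 genes in each of the 20 sections of hard palate replicates 1 and 2, with the superficial and deep windows shaded in grey. Flg, Lce1l, Spink7 and Dusp14 are high at the section 1 end and low at the section 20 end, and Igfbp5, Cbr2, Acta2 and Sfrp2 show the opposite order in both replicates.

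Proteases and protease inhibitors that act in shedding were also mainly superficial. Of 23 tested 13 were higher superficially and none was higher deep, with a median log2 change of -0.91. The kallikrein Klk5, a protease that cleaves the junctions of cornified cells, went from 186 ± 74 to 54.8 ± 24.9 CPM in replicate 1 and from 188 ± 19.4 to 89.5 ± 18.5 CPM in replicate 2, with no overlap in either. Its log2 change was -1.58 ± 0.18 (adjusted p = 0.000292). Klk14 and Klk8 fell by 1.26 and 1.13 on the log2 scale toward the deep end. Outside the list, the protease inhibitor gene Spink7 had the smallest adjusted p of the named superficial genes. It was at 289.8 ± 93.3 CPM superficially and 71.9 ± 40.2 CPM deep in replicate 1 and at 68.9 ± 7.98 and 15.7 ± 8.11 CPM in replicate 2. The level differed between the replicates while the fold was alike, and the log2 change was -2.24 ± 0.15 (adjusted p = 7.24e-06). The serpin gene Serpina12 went from 145 to 44.4 CPM in replicate 1 and from 92.3 to 17.2 CPM in replicate 2 (log2 change -2.32 ± 0.23).

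Enzymes that make and process the barrier lipids followed. Of 21 tested 11 were higher superficially and none was higher deep, with a median log2 change of -0.82. The neutral sphingomyelinase gene Smpd3 went from 222 ± 51.8 to 99 ± 15.2 CPM in replicate 1 and from 232 ± 32.2 to 116 ± 32.2 CPM in replicate 2, without overlap, a log2 change of -1.43 ± 0.19 (adjusted p = 0.000411). The lipoxygenase genes Aloxe3 and Alox12b, which act in turn on ceramide-bound fatty acids, had log2 changes of -1.17 ± 0.19 and -1.07 ± 0.22. The spinous keratinocyte list was more level, with 5 of 17 members higher superficially and a median of -0.72. These 5 were the desmosomal genes Dsc1, Dsg1b and Jup, the keratin gene Krt1 and Sbsn.

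Among transcription factors of keratinocytes 9 of 27 were higher superficially and 1 was higher deep. Prdm1, which encodes a repressor active in the granular layer, had the largest superficial change, from 79.2 to 34.3 CPM in replicate 1 and from 100.1 to 56.6 CPM in replicate 2 (log2 -1.32 ± 0.17, adjusted p = 0.000411). Grhl1, Grhl3 and Ovol1, regulators of epidermal differentiation, had log2 changes of -0.72, -0.72 and -0.84. Barx2, a homeobox gene, was the exception and rose from 11.4 to 48.7 CPM in replicate 1 and from 16.1 to 32.9 CPM in replicate 2, without overlap (log2 1.18 ± 0.23, adjusted p = 0.0044). Of 28 genes of EGF and FGF signalling 4 ligand genes were higher superficially (Fgf22, Ereg, Epgn and Tgfa) and 2 genes higher deep (Dusp6 and Fgf2). Over all genes tested the shares were 5.03% higher superficially and 6.26% higher deep. Fgf22 went from 67.2 to 19.5 CPM in replicate 1 and from 95.8 to 38.5 CPM in replicate 2 (log2 -1.82 ± 0.20, adjusted p = 0.000127), and Ereg, which encodes epiregulin, fell by 1.44 on the log2 scale.

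Antimicrobial and alarmin genes divided by depth, with 12 of 32 higher superficially and 5 higher deep. The superficial ones included the interleukin-1 family genes Il1f5, Il1f6, Il1f8 and Il1f9 and the defensin genes Defb1, Defb4 and Defb6. Il1f5, which encodes an antagonist of the interleukin-36 receptor, went from 237 to 84.6 CPM in replicate 1 and from 228 to 106 CPM in replicate 2 (log2 -1.56 ± 0.15, adjusted p = 7.83e-05). The deep ones were Reg3g, Cxcl2, Lcn2, Pglyrp1 and Il1b. Reg3g, a gene for a bactericidal lectin, was at 15.8 ± 3.50 and 52.4 ± 37.2 CPM in replicate 1, where the windows overlapped, and at 10.6 ± 1.64 and 320.4 ± 185 CPM in replicate 2, where they did not. Its log2 change of 3.07 ± 0.62 (adjusted p = 0.00934) became 1.05 without replicate 2 and then did not pass. In replicate 1 alone none of the antimicrobial genes was higher deep, against 9 in replicate 2 alone. The summed CPM of the neutrophil list, to which S100a8 and S100a9 belong, went from 749 ± 87.4 to 888 ± 457 in replicate 1 and from 49.1 ± 13.4 to 357 ± 52.8 in replicate 2, and its part in the deep calls was not tested. The alarmin gene S100a8 did not pass (adjusted p = 0.719), at 495 and 308 CPM in replicate 1 and 6.13 and 56.9 CPM in replicate 2.

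The remaining superficial genes named by size of change fell outside these groups. Ahsg encodes fetuin-A, a plasma glycoprotein, and went from 139.9 to 33.8 CPM in replicate 1 and from 293 to 118 CPM in replicate 2 (log2 -1.92 ± 0.21). Lyg1, a lysozyme-like gene, and Cytl1, which encodes a secreted protein found in cartilage, had log2 changes of -1.85 ± 0.21 and -1.89 ± 0.38. Cytl1 did not pass without replicate 1, where it fell by 1.14 on the log2 scale. Acoxl, an acyl-CoA oxidase-like gene, had the largest change of the named superficial genes, -3.07 ± 0.35, but it rested on few sections. It reached 432 CPM in section 3 of replicate 1 and 78.5 CPM in section 3 of replicate 2, and its windows overlapped in both replicates.

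The most abundant keratins could not be followed in UMIs. With 6-base UMIs a gene can reach at most 4096 UMIs in a section, and 24 genes came to at least 4000 in some hard palate section. Their levels are given as reads-per-million of a section (means over the window), which has no such ceiling. Krt76, a keratin of the palate and of suprabasal oral epithelium, was at 65581 superficially, 40831 in the middle and 33241 deep in replicate 1, and at 36172, 32881 and 25325 in replicate 2. The order was thus downward in both, and Spearman's rho with section number, in reads, was -0.86 and -0.92. Krt10, a keratin of cornifying epithelium, showed the same order, with 7137, 3577 and 3388 in replicate 1 and 6434, 3835 and 2819 in replicate 2. Krt6b went from 46027 to 24817 and from 78836 to 52193.

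Krt4, a keratin typical of oral epithelium that does not cornify, ran the other way in reads. It was at 1536, 5294 and 10409 in replicate 1 and at 7764, 9707 and 12757 in replicate 2, with rho of 0.91 and 0.90. In the read counts none of these 4 keratins passed edgeR's test between the ends, and only 2 of the 24 genes did, Lor and 2310046K23Rik, both higher superficially. The basal keratins Krt5 and Krt14 did not pass either, and both had their highest window mean in the middle in both replicates. Krt5 was at 4649, 7002 and 6105 reads-per-million in replicate 1 and at 3445, 4163 and 4082 in replicate 2, with rho of 0.43 and 0.69. Krt14 was at 13709, 14372 and 13716 reads-per-million in replicate 1 and at 6268, 6971 and 6265 in replicate 2. Of 17 basal and hemidesmosome genes 1 was higher deep (Itgb1, the integrin beta 1 gene) and none superficially, with a median of -0.00. None of 30 cell cycle genes passed in either direction, with a median log2 change of -0.03.

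**Figure D2:**
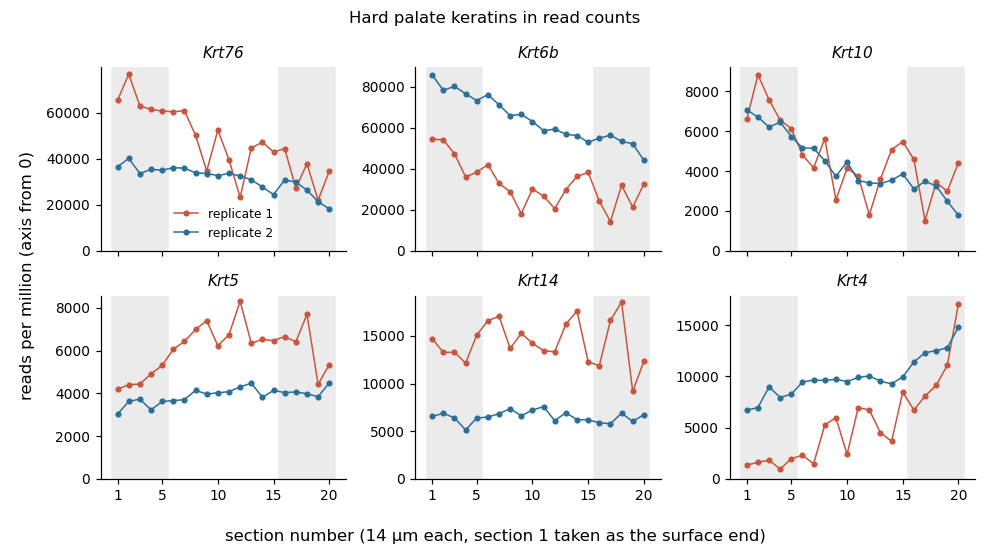
Reads-per-million of a section for 6 keratin genes in the 20 sections of hard palate replicates 1 and 2. Krt76, Krt6b and Krt10 lie higher near section 1, Krt4 lies higher near section 20 in both replicates, and Krt5 and Krt14 have their highest window mean in the middle.

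At the deep end the genes of the lamina propria were higher. In a section fewer cells of a type and less RNA per cell cannot be told apart, so the values describe RNA and not cell numbers. All 40 tested fibroblast and matrix genes had a positive log2 change, 21 rose toward the deep end and none fell, with a median of 0.80. Ogn, which encodes the small matrix proteoglycan osteoglycin, went from 3.09 ± 1.83 to 23.5 ± 10.9 CPM in replicate 1 and from 5.87 ± 4.79 to 78.8 ± 14.2 CPM in replicate 2. The windows did not overlap, and the log2 change was 2.92 ± 0.30 (adjusted p = 7.5e-05). Lum and Fn1, the genes of lumican and fibronectin, rose by 1.43 ± 0.28 and 1.11 ± 0.28 on the log2 scale. The fibrillar collagen genes were far more abundant and less steep. Col1a1 was at 443 and 1006 CPM in replicate 1 and 1094 and 1958 CPM in replicate 2 (log2 0.62, adjusted p = 0.0663), and Col3a1 had an adjusted p of 0.581.

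Sfrp2, which encodes a secreted modulator of Wnt signalling made by fibroblasts, had the smallest adjusted p of the named deep genes. It was at 5.76 ± 2.74 CPM superficially, 23.7 in the middle and 59.9 ± 27.5 deep in replicate 1, and at 8.29 ± 5.66, 41.3 and 111 ± 15 CPM in replicate 2. No deep section of either replicate was as low as the highest superficial one. The log2 change was 3.23 ± 0.28 (adjusted p = 2.7e-05). Of the 31 Wnt genes tested 3 were higher deep, Sfrp2, Sfrp4 and Dkk2, and 1 was higher superficially, Wnt7b, with a list median of 0.04. Over all genes tested the shares were 6.26% and 5.03%, so these small counts are not read as a pattern of the list. Igfbp5, which encodes an insulin-like growth factor binding protein, rose most steadily. It went from 64.8 ± 11.1 to 285 ± 109 CPM and from 67.5 ± 21.9 to 352 ± 54.4 CPM, and its rho with section number was 0.97 and 0.99 (log2 change 1.91 ± 0.28, adjusted p = 0.000746). It did not pass without replicate 2, at 1.77.

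Vessel genes rose together. Of 22 endothelial genes 18 were higher deep, none was higher superficially, and the median log2 change was 1.58. Vwf, which encodes von Willebrand factor, went from 6.97 ± 2.13 to 41.6 ± 23 CPM in replicate 1 and from 5.89 ± 3.75 to 52.7 ± 6.33 CPM in replicate 2, without overlap, a log2 change of 2.51 ± 0.24 (adjusted p = 4.37e-05). Pecam1, the gene of an adhesion protein of all endothelium, changed by 1.75 ± 0.32. Lyve1, Prox1 and Flt4, genes known from lymphatic endothelium, changed by 2.18 ± 0.32, 1.97 ± 0.33 and 2.20 ± 0.47. Lyve1 is also made by some macrophages.

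Of 16 smooth muscle and pericyte genes 10 were higher deep and none superficially, with a median of 1.79. Acta2, the smooth muscle actin gene, was at 65.4 ± 21.2 CPM superficially and 278 ± 111 CPM deep in replicate 1, and at 64.7 ± 16.5 and 765 ± 84.5 CPM in replicate 2. The deep sections were all above the superficial ones in both replicates, and the log2 change was 2.56 ± 0.54 (adjusted p = 0.00727). Myh11, Myl9 and Tagln, which encode parts of the smooth muscle contractile apparatus, changed by 3.19 ± 0.56, 2.92 ± 0.48 and 3.45 ± 0.66. Without replicate 2 none of these 4 genes passed, at 1.90, 2.73, 2.16 and 1.69. None of the 27 tested skeletal muscle genes passed, with a median of 0.51. Without sections 1, 4 and 19 of replicate 1, where that list was high, 5 were higher deep.

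Nerve, immune and fat cell genes were higher deep too. Of 19 Schwann cell and nerve genes 12 rose and none fell, with a median of 1.25, and Ncam1, a neural cell adhesion gene, went from 6.40 to 21.5 CPM in replicate 1 and from 16.1 to 42.4 CPM in replicate 2 (log2 1.25 ± 0.21, adjusted p = 0.00216). It did not pass with either replicate left out, at 0.98 without replicate 1 and 1.58 without replicate 2. Of 18 genes of macrophages and antigen presentation 12 rose and none fell, with a median of 1.12. Cd74, the invariant chain of class II molecules, changed by 1.26 ± 0.18 and Mrc1, the mannose receptor of tissue macrophages, by 1.66 ± 0.28. Of 7 mast cell genes 6 rose, among them the proteases Cpa3 (2.06 ± 0.34) and Mcpt4 (1.77 ± 0.33). The mast cell median was 1.38 in replicate 1 alone and 2.15 in replicate 2 alone. None of 10 T cell genes passed, with a median of 0.89. Of 14 adipocyte genes 7 rose, among them Fabp4, a fatty acid binding protein gene, from 10.7 to 52 CPM in replicate 1 and from 3.17 to 76.8 CPM in replicate 2. The adipocyte median was 1.61 in replicate 1 alone and 3.75 in replicate 2 alone. Adipoq, the adiponectin gene, had no UMI among the 6196581 of the superficial sections of replicate 1 (which allows up to 3, for counting error only) and 0.35 CPM in those of replicate 2, with 5.74 and 21 CPM deep. In the other 6 samples Fabp4 was at 189 to 628 CPM deep, while the median of Adipoq there was 0.27 CPM. Fabp4 thus does not mark fat cell RNA alone.

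**Figure D3:**
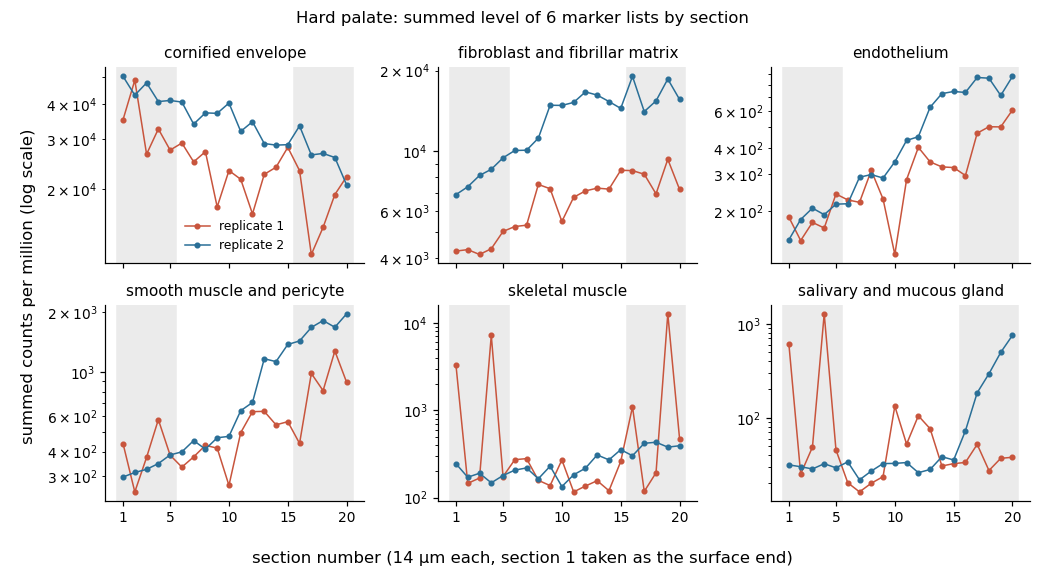
Summed CPM of 6 gene lists (logarithmic axis) in each of the 20 sections of hard palate replicates 1 and 2. The cornified envelope sum falls toward section 20, the fibroblast, endothelium and smooth muscle sums are higher there, and the skeletal muscle sum peaks in sections 1, 4 and 19 of replicate 1.

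Bone and patterning genes gave deep calls that rested on replicate 2, as did those of the smooth muscle, nerve, macrophage, mast cell and adipocyte lists. In replicate 1 alone the median log2 change was 0.83 for the bone list and 0.20 for the patterning list. In replicate 2 alone it was 1.98 and 1.03. Of 13 tested bone and osteoblast genes 8 rose and 1 was higher superficially, the latter being Smpd3, which is also a barrier lipid gene. The summed CPM of the bone list went from 279 ± 47.7 to 201 ± 51.0 in replicate 1 and from 274 ± 42.2 to 387 ± 42.2 in replicate 2, and no gene of it was higher deep in replicate 1 alone. Runx2, the transcription factor gene of the osteoblast lineage, was at 24.7 ± 14.8 and 44.1 ± 18.5 CPM in replicate 1, where the windows overlapped, and at 5.28 ± 3.03 and 88 ± 25 CPM in replicate 2, where they did not. Its log2 change of 1.84 ± 0.44 (adjusted p = 0.0148) became 0.35 without replicate 2 and did not pass. The mineralization genes Ibsp and Alpl also rose but from and to low levels, at 3.13 and 2.69 CPM deep in replicate 1 and 9.76 and 14.4 CPM deep in replicate 2. Of 38 palate and face patterning factors 10 rose and 3 fell, and none was higher deep in replicate 1 alone. Their summed CPM went from 1339 ± 240 to 1360 ± 354 in replicate 1 and from 1303 ± 174 to 1668 ± 131 in replicate 2. Osr1 and Msx1, which code for factors of the embryonic palate mesenchyme, changed by 3.13 ± 0.51 and 2.59 ± 0.30. Msx1 went from 5.47 to 22.2 CPM in replicate 1 and from 4.65 to 48.6 CPM in replicate 2. Msx2, Dlx3 and Tfap2b, which are also active in differentiating epithelium, were the 3 that were higher superficially, at -1.20 ± 0.20, -1.03 ± 0.30 and -0.68 ± 0.21.

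By the median of their tested members, cartilage genes went against the other connective tissue lists. Of 8 tested 3 were higher superficially (Acan, Cnmd and Col2a1), none was higher deep and the median log2 change was -1.25. Acan, the aggrecan gene, was at 12 ± 4.25 CPM superficially and 0.14 ± 0.314 CPM deep in replicate 1, and at 5.23 ± 1.51 and 1.11 ± 0.957 CPM in replicate 2, with no overlap. Cnmd, which encodes chondromodulin, showed the same at 8.01 and 0.14 CPM and at 9.46 and 2.12 CPM. Both are low values. Without sections 1, 4 and 19 of replicate 1, 2 of the 3 passed, and none did with either replicate left out.

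Among the other deep genes, Ltf was named for the size of its change and Cbr2 for its steadiness. Ltf, which encodes the iron-binding protein lactoferrin found in gland secretions and neutrophils, was at 36.7 ± 14.2 and 368 ± 256 CPM in replicate 1 and at 31 ± 6.02 and 206 ± 13.6 CPM in replicate 2. No window overlapped and the log2 change was 2.56 ± 0.45 (adjusted p = 0.00252). In the middle Ltf was already at 212 CPM in replicate 1 but at 36.8 CPM in replicate 2. Cbr2, a carbonyl reductase gene, rose from 181 ± 42.8 to 1075 ± 616 CPM and from 273 ± 12.3 to 856 ± 122 CPM (log2 1.52 ± 0.20, adjusted p = 0.000419). The simple keratin genes Krt19, Krt8 and Krt18, found in ducts and Merkel cells and picked here after their values were seen, rose by 2.91, 3.38 and 1.76 on the log2 scale, from low levels. Of 8 tested genes of the Merkel cell list 2 rose and 1 was higher superficially, with a median of -0.06. The summed CPM of that list went from 69.0 ± 15.6 to 76.1 ± 29.1 in replicate 1 and from 92.0 ± 10.1 to 102 ± 10.4 in replicate 2.

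Of 15 tested salivary and mucous gland genes 2 rose (Muc19 and Aqp5) and 1 was higher superficially (Bpifb1). The summed CPM of the list in replicate 2 stayed at 21.8 to 38.4 up to section 15 and then climbed to 756 in section 20, while in replicate 1 it was highest in sections 1 and 4. Bpifb1 followed the latter, at 333 and 8.19 CPM in replicate 1 and 0.15 and 0.496 CPM in replicate 2. The mucin gene Muc5b was at 5.52 and 2.52 CPM in replicate 1 and 1.92 and 141 CPM in replicate 2 and did not pass (adjusted p = 0.131). Of 9 tested genes of respiratory and olfactory epithelium 2 rose and 1 was higher superficially. The summed CPM of that list went from 1172 ± 116 to 2070 ± 580 in replicate 1 and from 1158 ± 22.2 to 1610 ± 137 in replicate 2. Much of it was Cyp2f2, at 375 and 895 CPM in the summed windows of replicate 1 and 868 and 1170 CPM in replicate 2. Cyp2f2 was also at 83.1 to 2713 CPM superficially and 354 to 1604 CPM deep in the other 6 samples, so the sum does not mark airway RNA alone. Of 5 tested neutrophil genes 1 rose, Ltf itself, and the summed CPM of that list and the values of S100a8 are given above. S100a9, another member, went from 229 to 231 CPM in the summed windows of replicate 1. In replicate 2 it went from 8.56 to 90.0 CPM. The part of gland, airway or neutrophil RNA in the rise of Ltf, Reg3g and Cbr2 was not tested.

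**Figure D4:**
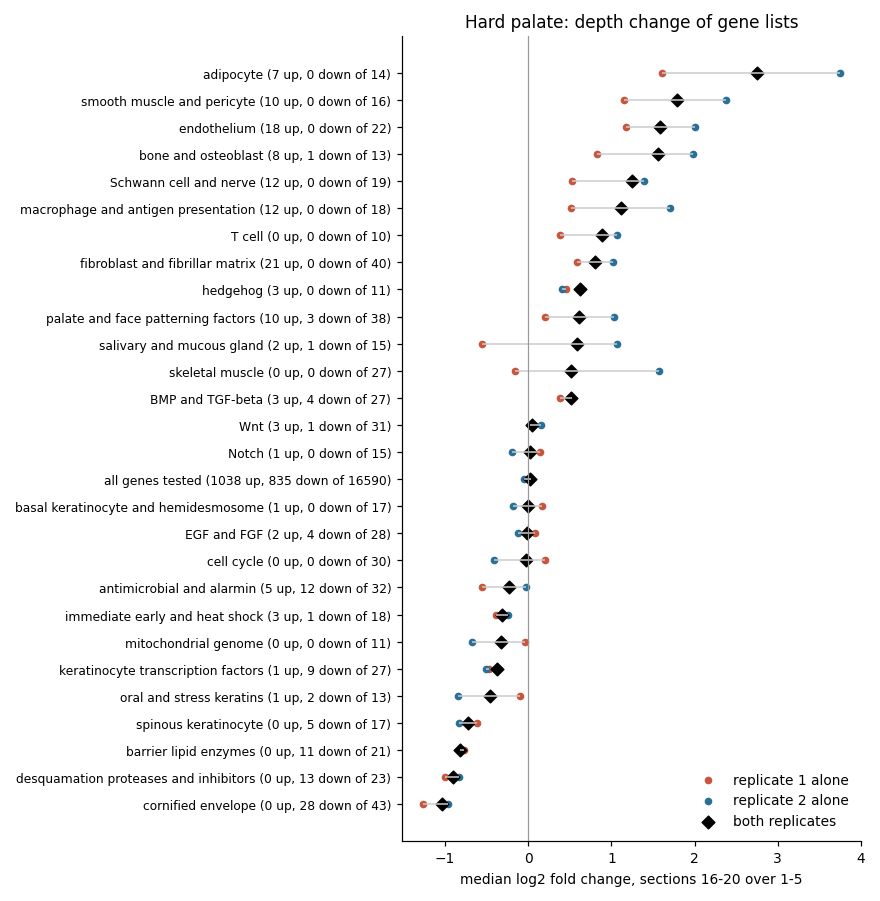
Median log2 change from the superficial to the deep sections for gene lists with at least 10 tested members, with the counts called higher deep and higher superficially in the labels. Diamonds use both hard palate replicates and dots 1 replicate alone. The cornified envelope, shedding and barrier lipid lists lie below 0 and the fibroblast, endothelium, smooth muscle, nerve and macrophage lists above 0 with either replicate alone.

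The 2 replicates did not carry these counts equally. Without replicate 2 the whole comparison gave 112 genes, 21 higher deep and 91 higher superficially. Without replicate 1 it gave 894, 706 and 188. With 1 hard palate sample left its windows have no replicate, and the test assumes that the lone sample varies like those of the other sites. Of the cornified envelope genes 13 were higher superficially in replicate 1 alone and 14 in replicate 2 alone, where 3 others were higher deep. The other superficial lists lost most of their calls, with 5 shedding, 1 barrier lipid, 1 transcription factor and no spinous gene in replicate 1 alone and 4, 2, 1 and 1 in replicate 2 alone. Among the deep lists the loss lay in replicate 1. In replicate 1 alone 1 endothelial, 1 fibroblast and no smooth muscle, nerve or macrophage gene passed, against 17, 11, 9, 9 and 12 in replicate 2 alone. The medians were positive in replicate 1 alone all the same, at 1.17 for endothelium, 0.58 for fibroblasts, 1.15 for smooth muscle, 0.52 for nerve and 0.51 for macrophages, against 0.03 for all genes tested. The mitochondrial share of UMIs, a sign of RNA or tissue quality, went from 2.30% superficially to 4.09% deep in replicate 1. In replicate 2 it went from 2.21% to 2.07%. Mitochondrial genes such as mt-Nd4 and mt-Cytb came near the UMI ceiling, so this share is compressed in sections with many UMIs. In reads-per-million, mt-Nd4 went from 10403 to 15899 in replicate 1 and from 11694 to 15945 in replicate 2. For mt-Cytb the values were 8420 and 13291 in replicate 1 and 10885 and 15081 in replicate 2. The part of the mitochondrial share in the difference between the replicates was not tested.

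Section by section, correlation with section number described the same axis without windows. It is given without a test, since the sections of a sample share their block and library. Of the 3932 genes of at least 50 CPM, 48 (1.22%) had a Spearman's rho of at least 0.7 in both replicates and 123 (3.13%) a rho of -0.7 or lower. In replicate 1 alone the shares were 1.35% rising and 4.02% falling, and in replicate 2 alone 12.6% and 10.2%. After Igfbp5 the steadiest rises were those of Cbr2 (rho 0.90 and 0.98), Sparcl1, a matrix glycoprotein gene (0.89 and 0.97), Myl9 (0.88 and 0.97) and Tns1, the gene of the adhesion protein tensin (0.88 and 0.95). The steadiest falls were those of Flg (-0.90 and -0.97), Cpa4, a carboxypeptidase gene (-0.88 and -0.89), Nrd1, Zfand6 and Dusp14. Dusp14, which encodes a dual-specificity phosphatase, went from 827 ± 216 to 327 ± 102 CPM in replicate 1 and from 906 ± 55 to 458 ± 90.7 CPM in replicate 2 (log2 -1.43 ± 0.20). Nrd1 and Zfand6 covered a smaller range, with log2 changes of -0.94 ± 0.21 and -0.96 ± 0.21.

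Little was detectable that was particular to the middle of the block. The test of sections 8 to 13 against the mean of both ends called 1 gene, the predicted gene Gm20743 (0.00603% of those tested; outside the naming rule), with 597 genes at an unadjusted p under 0.05, and DESeq2 called 3. The log2 differences of middle and ends correlated weakly across genes between the replicates (Spearman's rho 0.16), with the same sign in 56.0%. The running mean over 3 sections was highest within sections 8 to 13 in 1165 genes (29.6%) in replicate 1, 436 (11.1%) in replicate 2 and 149 (3.79%) in both. No gene named here for the middle passed the test.

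Col1a1 was among the genes with their peak in the middle in both replicates. Its level was 443, 1104 and 1006 CPM superficially, in the middle and deep in replicate 1, and 1094, 2071 and 1958 CPM in replicate 2, with the peak of the running mean at section 12 in both. The deep level was close to the middle one, so it was a plateau more than a peak. Col1a2, the partner chain, was at 538, 1129 and 877 CPM and at 1463, 2724 and 2360.3 CPM. The laminin gene Lama3, whose product anchors the basal layer, was at 149, 177 and 146 CPM and at 133, 204 and 184 CPM. The guidance factor genes Sema3c and Sema5a peaked at sections 11 and 12 and at sections 12 and 12, with log2 differences of middle over ends of 0.65 and 0.29 and of 0.44 and 0.29. Krt5 and Krt14 peaked at section 10 in UMIs in both replicates, where the UMI ceiling distorts their level. Their section means in reads were also highest in the middle, as given above, but the fit to reads summed over each window, in which sections with more reads weigh more, gave middle minus ends as 0.08 for Krt5 and -0.15 for Krt14 on the log2 scale, and neither passed. Of the 5 genes lowest in the middle, Cox6a2, Mb, Atp2a1 and Tnni2 belong to skeletal muscle and the remaining gene does not. The skeletal muscle list was highest in sections 1, 4 and 19 of replicate 1. In replicate 2 the middle was not the lowest window of these muscle genes. Mb, the myoglobin gene, was at 3.42, 5.01 and 24.8 CPM in the summed superficial, middle and deep windows of that replicate.

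Odam, which encodes a secreted protein of the epithelium attached to teeth, entered with depth in 1 replicate. In replicate 2 it was at 4.66, 2.25, 4.90 and 8.47 CPM in sections 1 to 4, then climbed to 252 CPM in section 10 and averaged 163 CPM deep. In replicate 1 it lay between 31.6 and 327 CPM throughout. It did not pass between the ends (adjusted p = 0.488).

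The depth change of the hard palate was also set against the mean depth change of the other 3 sites, with the same windows, as an interaction in the same fit. It differed in 1544 of 16590 genes (9.31%), more toward the deep end in hard palate in 712 (4.29%) and more toward the superficial end in 832 (5.02%), with a median of 0.13 over all genes tested. Which end of the other sites is the surface is not labelled either, so this comparison is between section numbers. Buccal mucosa replicate 2 stood apart from the other samples in epithelial RNA, with 107, 19.2 and 12.7 CPM of Krt5 and 11.5, 8.53 and 14.7 CPM of Lor in its 3 windows, where the other 7 samples held at least 1133 and 1542 CPM. Without it 1827 genes differed. Ltf was at log2 2.91 and 2.68 in the hard palate replicates and at -3.02 to -0.34 in the other 6 samples (adjusted p = 0.00164). It was scarce elsewhere, at 0.269 to 62.2 CPM superficially and 0 to 19.1 CPM deep, so the fitted size of the difference depends on the prior count and is not read. Sfrp2 was at 3.08 and 3.55 against -2.19 to -0.15 (difference 4.55 ± 0.46, adjusted p = 0.000208), and Cbr2 at 1.97 and 1.63 against -1.63 to 0.20 (difference 2.27 ± 0.23). For these genes hard palate samples lay above all 6 others. Sfrp2 was low in part of them, at 0.806 to 35.0 CPM superficially and 0.631 to 11.2 CPM deep. Psca, a gene for a cell surface antigen of epithelium, and Mal, which encodes a protein of apical membranes, also passed (adjusted p = 0.00207 and 0.002). Psca was at 0 to 78.6 CPM superficially and 0 to 37.4 CPM deep elsewhere, and Mal at 14.2 to 247 and 6.15 to 70.1 CPM.

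In the other direction Fbxo32, a ubiquitin ligase gene known from muscle wasting, was lower deep in hard palate (-0.95 and -0.68) and higher deep in all 6 other samples (0.66 to 1.65), a difference of -2.10 ± 0.19 (adjusted p = 0.000138). Skeletal muscle genes moved with it elsewhere. Ckm, the muscle creatine kinase gene, was higher deep in all 6 other samples (0.50 to 3.29) and at -0.24 and -0.10 in hard palate. Mb was at 758 to 3229 CPM superficially and 2857 to 4811 CPM deep in the others, against 117 and 113 CPM in hard palate replicate 1 and 3.42 and 24.8 CPM in replicate 2. Their part in the difference was not tested. Bnip3, a gene of mitochondrial turnover, was at -0.26 and -0.34 against 0.83 to 1.78 (difference -1.93 ± 0.25), and Cytl1 at -2.73 and -0.78 against 0.46 to 2.95 (adjusted p = 0.0195). Cytl1 had no superficial UMI in 3 of the 6 others, which held 0 to 12.5 CPM superficially and 0.769 to 17.6 CPM deep, so the size of its fitted difference is not read. Acoxl passed at -2.43 ± 0.46 but rested on buccal mucosa replicate 2, without which the difference was -0.22 and did not pass, and it did not pass without hard palate replicate 1 either (-1.56). Of the 43 cornified envelope genes 13 had a more negative depth change in hard palate and none a more positive one, and the same counts held without buccal mucosa replicate 2. Flg was at -2.21 and -1.43 in hard palate and -1.61 to 0.35 elsewhere, so the ranges overlapped (difference -1.39 ± 0.31, adjusted p = 0.0112). The 0.35 is buccal mucosa replicate 2, at 2.09 CPM superficially and 2.93 CPM deep, and without it the difference was -1.29 (adjusted p = 0.00711). Of 18 macrophage and antigen presentation genes 10, and of 22 endothelial genes 7, had a more positive depth change in hard palate. With replicate 1 or replicate 2 of the hard palate left out, Ltf, Sfrp2, Psca, Cbr2 and Fbxo32 still passed in both cases. The whole comparison fell to 437 genes without replicate 1 and to 18 without replicate 2.

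**Figure D5:**
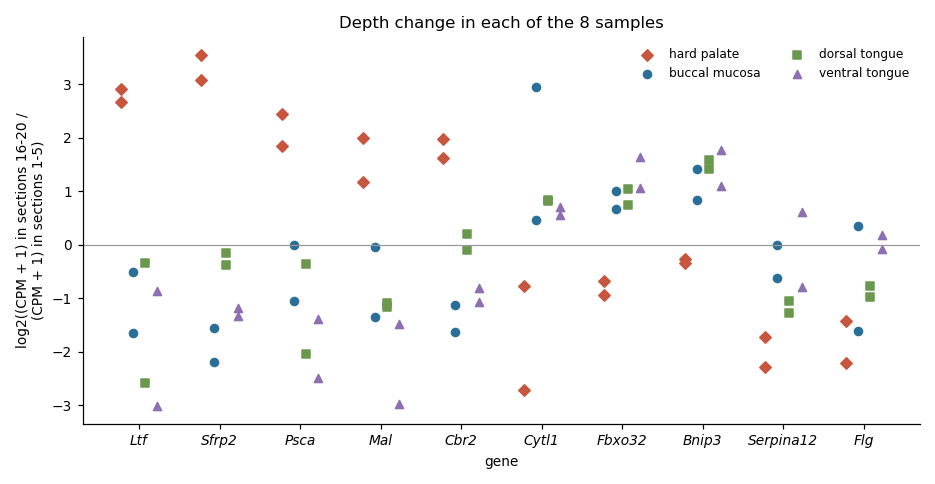
Log2 ratio of deep over superficial CPM (1 CPM added to each) in the 8 samples for 10 genes, with the hard palate replicates set off from the other sites. Ltf, Sfrp2, Psca, Mal and Cbr2 are above 0 in both hard palate samples and at or below 0.20 elsewhere, while Cytl1, Fbxo32 and Bnip3 show the reverse.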

How the data were processed

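RNA of single sections was made into CEL-seq2 libraries and sequenced on a NextSeq500, per the labels' protocols. The submitters' processing notes list STAR 2.7.9a, Trim Galore 0.6.10 and, as build, GRCm38. For the counting program, none is given in the sources used here. The authors deposited raw counts of UMIs and of reads per gene and section, and expected counts (transcripts estimated from UMIs, rounded here). Sections under 10000 UMIs were dropped, which removed 1 of the series and none of hard palate. Entries naming several genes (413 of 33549, 0.185% to 0.251% of UMIs) stayed in the totals and were not named.

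UMIs were summed over the superficial, middle and deep sections of all 8 samples (24 sums, 8 residual degrees of freedom) and fitted with edgeR 4.0.16 (R 4.3.3): TMM, filterByExpr, quasi-likelihood F-test, sample as block, site by window terms. CPM values are means ± SD over sections, which are not replicates. Windows of 1 sample are paired by construction. The labels do not say whether replicate numbers pair samples across sites. Deviations in depth change of same-numbered samples had correlations of -0.195 to 0.207 between sites, which cannot show that they are unpaired. In data simulated for the deep against superficial comparison on 16304 genes, 67% of 2-fold and 95% of 4-fold changes were recovered. For the comparison with the other sites 40% of 2-fold and 85% of 4-fold changes were recovered. Alternatives used DESeq2 1.42.0 and limma 3.58.1.

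Named genes are the 10 with the largest change in each direction between the ends (5 against other sites) among those that passed, averaged 50 CPM or more in whichever window was higher and changed the same way in both replicates, the 10 highest and 5 lowest in the middle and those peaking there in both (as a description, without the test), the 5 steadiest in each direction by the smaller rho, and from each list the members that passed and the 4 most abundant. Gm20743 and any member outside this rule were chosen after their values were seen. Members and lists were chosen with earlier results of these data known.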

Additional observations from a re-analysis of the deposited data

Results flagged for a closer look

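For 21 of the named genes the depth change in hard palate differed from the mean of the other 3 sites by the interaction test in edgeR (Benjamini-Hochberg adjusted p under 0.05). The differences are on the log2 scale, hard palate minus the other sites, from 2 hard palate samples and 6 others. They were positive, toward the deep end, for Ltf (5.88), Sfrp2 (4.55), Psca (3.52), Mal (2.73), Runx2 (2.31), Cbr2 (2.27), Ogn (2.02) and Igfbp5 (1.15). They were negative for Cytl1 (-4.18), Chil4 (-2.66), Acoxl (-2.43), Fbxo32 (-2.1), Bnip3 (-1.93), Serpina12 (-1.73), Spink7 (-1.55), Ahsg (-1.48), Flg (-1.39), Lce1j (-1.19), Lce1l (-1.14), Nrd1 (-0.87) and Lyg1 (-0.85). Chil4, a chitinase-like gene, did not pass between the ends of the hard palate itself, and its level differed between the replicates, at 396 to 2558 CPM over the sections of replicate 1 and 0 to 8.68 CPM over those of replicate 2. The sizes for Ltf, Psca and Cytl1 depend on the prior count, since these genes were at or near 0 CPM in some windows of the other sites. Without buccal mucosa replicate 2 the difference of Cytl1 was -6.55. The prior count also bears on Chil4, Serpina12, Spink7, Lyg1, Lce1l and Lce1j, at 0 CPM superficially in buccal mucosa replicate 2. Acoxl was at 0 CPM deep in buccal mucosa replicate 1. Sfrp2 was at 0.806 CPM superficially and 0.631 CPM deep in dorsal tongue replicate 1. For Chil4, Ogn, Acoxl, Ahsg, Flg, Lce1j, Lce1l and Lyg1 the log2 ratios of hard palate overlapped the range of the 6 others. The cause of these differences was not tested.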

How the results depend on the processing

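The comparison of deep with superficial sections gave 1873 genes and moved by more than 1.5 times without buccal mucosa replicate 2 (2850), in the read counts (1185), with limma on mean log2 CPM per section (293) and without the sample as replicate block (0, with 1050 at an unadjusted p under 0.05). It ranged from 112 to 894 with a hard palate replicate left out. The share higher deep was 55.4%, 79.2% with limma and 49.0% with DESeq2. The comparison of the middle with the ends gave 98 genes with no filter on low counts, 3 with DESeq2, 2 in the hard palate samples alone, 8 without buccal mucosa replicate 2 and 0 with narrower windows, read counts, limma, no replicate block or without sections 1, 4 and 19, and 0 to 4 with a hard palate replicate left out. The comparison with the other sites gave 1827 genes without buccal mucosa replicate 2, 234 with limma, 0 without the replicate block (1187 at an unadjusted p under 0.05) and 18 to 437 with a hard palate replicate left out. A replicate block by window gave 1383. The cause of these shifts was not tested. Of the named genes' alternatives 331 kept their call, 59 lost it and 0 reversed. The setting without the replicate block accounted for 30 of those lost and leaving out hard palate replicate 2 for 13. The alternative without sections 1, 4 and 19 was chosen after seeing the data. With 2 replicates a side, changes of 2-fold were often missed, and genes near 4096 UMIs are compressed.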
